A study of Mus musculus with 13 samples.

Results

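Sox10, Erbb3, S100b, Foxd3 and Fabp7 are 5 genes that mark the neural crest and the Schwann cell lineage, and their levels are described here in the developing lower urinary tract of the mouse. They are 5 of the 15019 genes tested on the arrays. The probe sets annotated with 1 of these symbols and no other were collected, 9 in all, and each gene was represented by its probe set with the highest mean log2 intensity over the 13 arrays. A probe set is a group of short oligonucleotides on the array that together measure 1 transcript. The choice used no difference between groups.

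The neural crest is a migratory cell population of the vertebrate embryo that leaves the dorsal neural tube and gives rise to peripheral neurons, glia and pigment cells. In the pelvis, crest-derived cells form the ganglia and nerve sheaths that supply the bladder and urethra. Foxd3 and Sox10 encode transcription factors of crest cells. Sox10 stays on in the glial lineage, where it drives the gene for the neuregulin receptor ErbB3, on which Schwann cell precursors depend for survival. S100b encodes a calcium-binding protein and Fabp7 a fatty-acid-binding protein, both used as glial markers. None of the 5 is confined to crest derivatives: Erbb3 is also made in many epithelia, S100b in cartilage and astrocytes, and Fabp7 in the radial glia of the brain.

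RNA was measured on Affymetrix MOE430 arrays in tissues of embryonic day 14 FVB/N mice with the SMGA/EGFP transgene, in which the smooth muscle gamma-actin promoter drives a green fluorescent protein. The bladder (3 arrays, replicates 2, 6 and 8) and the urethra (3 arrays, replicates 1, 2 and 6) were cut out as fluorescent tissue, and the urogenital sinus (4 arrays, replicates 1, 2, 6 and 7) as the non-fluorescent tissue lying between them. Embryos of replicates 1 and 2 had reached Theiler stage 21, and those of replicates 6, 7 and 8 stage 22; their sex was unknown and their RNA was not pooled. The newborn reference (3 arrays) was RNA of wild-type FVB/N whole mice at postnatal day 1, pooled from 4 males and 4 females, so it holds every organ, brain and skeleton included. Per the labels, all region samples were transgenic and the reference was not. Whether 1 embryo gave tissue to several arrays is not stated, so the p-values speak only of the spread among these samples, which may be technical, and the number of arrays limits the precision.

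Values are log2 intensities. The floor was 5.65, to which lower signals were raised, and 7.39 was the level above which a probe set had to lie on at least 3 arrays to be kept. Of the 9 probe sets, 6 were kept, and all 5 genes were tested. Differences are the first group minus the second on the log2 scale with standard error (SE), a gene was called at a Benjamini-Hochberg adjusted p under 0.05 in limma over all 15019 genes, and intervals are 95% intervals from the same fit. Actg2, whose promoter guided the dissection, averaged 13.67 ± 0.26 on bladder arrays (SD, n = 3), against 9.26 ± 1.15 on urogenital sinus arrays (SD, n = 4), a called difference of 4.41 (SE 0.54, adjusted p = 0.00552 in limma). Urogenital sinus replicate 1 and urethra replicate 1 stood apart from the other region arrays in the embryonic globin gene Hbb-bh1, at 15.04 and 14.51, with the other 8 region arrays between 7.41 and 10.51. Actin control signal at the 3' end minus that at the 5' end was 4.04 on bladder replicate 8, 3.42 on urethra replicate 1 and 2.72 on sinus replicate 7. On the other region arrays it lay between 1.21 and 2.07. Bladder replicate 8 also had the lowest median intensity, 142, and the fewest probe sets above the filter level, 47.1%. The part of these array differences in the members' levels was not tested.

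The promoter windows of 3 of the 5 genes, Foxd3, Fabp7 and S100b, were found in the RefSeq promoter set used (GRCm38.p6), and all 3 are shown. No window was found there for Sox10 and Erbb3. Each window runs from 250 bases before the annotated start to 50 bases after it, on the + strand. Capitals mark every match, on either strand, to the SOX core motifs ACAAAG and ACAAT and to the E-box CANNTG. The Foxd3 window is chr4:99656049-99656348, the Fabp7 window chr10:57784673-57784972 and the S100b window chr10:76253586-76253885.
Foxd3: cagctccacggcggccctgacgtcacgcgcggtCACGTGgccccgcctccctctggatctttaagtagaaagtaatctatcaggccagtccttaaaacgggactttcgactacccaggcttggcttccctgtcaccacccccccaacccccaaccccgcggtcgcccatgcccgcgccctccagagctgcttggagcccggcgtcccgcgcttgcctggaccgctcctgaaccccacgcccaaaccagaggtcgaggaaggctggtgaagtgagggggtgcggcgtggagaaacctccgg
Fabp7: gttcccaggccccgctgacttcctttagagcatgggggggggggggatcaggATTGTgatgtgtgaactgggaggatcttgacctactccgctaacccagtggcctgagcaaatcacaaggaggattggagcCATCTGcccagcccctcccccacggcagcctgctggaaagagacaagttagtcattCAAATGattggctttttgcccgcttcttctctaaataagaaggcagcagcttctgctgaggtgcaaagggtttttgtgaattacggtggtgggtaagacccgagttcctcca
S100b: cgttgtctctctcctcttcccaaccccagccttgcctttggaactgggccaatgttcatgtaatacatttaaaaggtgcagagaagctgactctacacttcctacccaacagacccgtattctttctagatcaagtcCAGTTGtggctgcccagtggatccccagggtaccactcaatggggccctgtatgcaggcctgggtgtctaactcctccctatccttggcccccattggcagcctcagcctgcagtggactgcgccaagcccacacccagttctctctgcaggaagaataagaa

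Fabp7 had 1 match to a SOX core, the letters ATTGT at position -198 from the start, which read ACAAT on the other strand. Foxd3 and S100b had 0 such matches in these windows. Either SOX core occurred in 42.88% of the 32851 windows of the same length in the RefSeq table. E-boxes were found at -217 in Foxd3 (CACGTG), at -118 and -62 in Fabp7 (CATCTG and CAAATG) and at -113 in S100b (CAGTTG), and 72.31% of all windows held at least 1. The sequence TATAAA was found in 0 of the 3 windows and in 13.62% of all windows. The E-box and the SOX cores do not overlap in these 3 windows. A match of letters is a description and does not show that a factor binds there.

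Foxd3, the transcription factor of early crest cells, was near the floor in most samples. Its level was 6.12, 5.65 and 6.83 on bladder arrays, 5.65, 7.08 and 6.52 on urethra arrays, 5.65, 7.95, 7.79 and 7.68 on urogenital sinus arrays, and 8.11, 5.95 and 5.72 on reference arrays, in the order of replicates given above. Among region arrays it exceeded the filter level on 3 only, urogenital sinus replicates 2, 6 and 7, while the other sinus array lay at the floor. All bladder and urethra arrays lay below those 3 sinus arrays and none lay below replicate 1, so the groups overlapped.

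Sox10, the transcription factor that marks migrating crest cells and glia, was measured by 3 probe sets that did not behave alike. The representative one read 6.64, 8.17 and 7.40 in the bladder, 8.44, 8.65 and 8.21 in the urethra, 8.99, 7.71, 8.23 and 8.30 in the urogenital sinus, and 8.05, 9.11 and 8.77 in the reference. The bladder lay below all 3 urethra arrays but overlapped the sinus, because bladder replicate 6 exceeded sinus replicate 2. The second kept probe set read the floor of 5.65 on all 3 bladder arrays, 6.93, 6.80 and 7.50 in the urethra, 6.95, 9.31, 8.01 and 8.14 in the urogenital sinus, and 8.44, 6.77 and 6.54 in the reference. On this probe set the bladder lay below every other array. The third probe set was at the floor on 11 of 13 arrays and was not kept. Over the 10 region arrays the representative and the second probe set correlated with r = 0.29 (rho 0.29), as a description. Sinus replicate 2 was the lowest of the sinus arrays on the representative probe set and the highest on the second. All 3 carry the array suffix for probes shared by several transcripts of 1 gene.

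Erbb3, the neuregulin receptor, was the member whose bladder arrays varied least. It read 11.64, 11.32 and 11.38 in the bladder, 14.10, 12.09 and 12.75 in the urethra, 12.38, 13.19, 12.92 and 12.52 in the urogenital sinus, and 13.45, 12.87 and 12.18 in the reference. All 3 bladder arrays lay below all other arrays of the series, and the urethra, the sinus and the reference overlapped. A second Erbb3 probe set was near the floor, with a highest value of 7.64 on urethra replicate 2, and was not kept.

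S100b, the calcium-binding glial marker, was low in the embryonic regions. It read 6.35, 7.19 and 6.01 in the bladder, 6.24, 8.43 and 6.92 in the urethra, 6.48, 8.44, 8.17 and 7.14 in the urogenital sinus, and 10.11, 9.61 and 9.51 in the reference. The reference lay above every region array, no bladder array passed the filter level, and the 3 regions overlapped. A second S100b probe set was at the floor on all 10 region arrays and read 7.50, 5.65 and 9.15 on the reference arrays.

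Fabp7, the fatty-acid-binding protein of glial progenitors, spanned the widest range of the 5. It read 7.999, 8.45 and 8.92 in the bladder, 7.61, 9.88 and 9.72 in the urethra, 6.32, 11.06, 11.22 and 10.47 in the urogenital sinus, and 12.29, 12.17 and 12.85 in the reference. Sinus replicates 2, 6 and 7 were above all bladder and urethra arrays, sinus replicate 1 was the lowest of the 13, and the reference was above every region array. Lower signal in a tissue sample can come from fewer cells of a type or from less RNA per cell, and these cannot be told apart here.

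**Figure D1:**
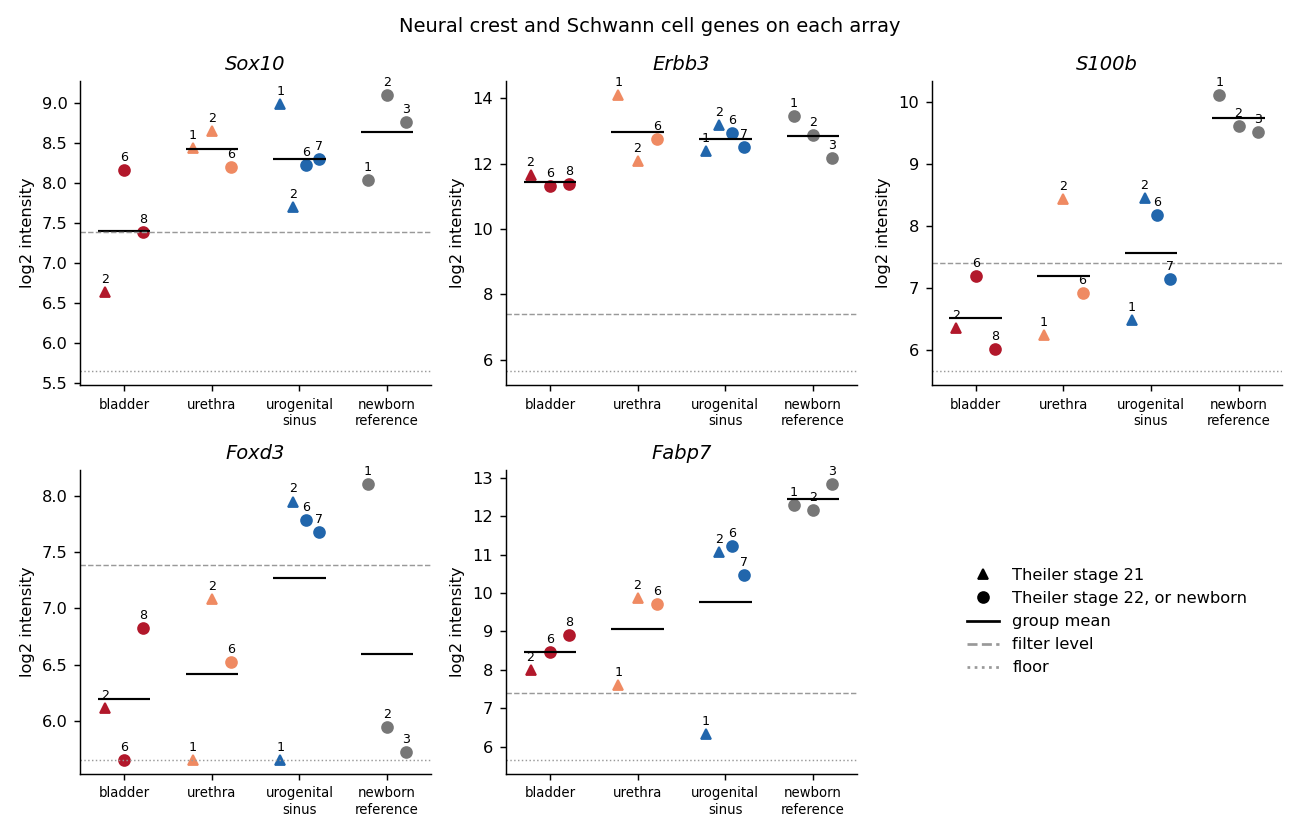
Log2 intensity (vertical axis) of Sox10, Erbb3, S100b, Foxd3 and Fabp7 on each array, by group along the horizontal axis, with the replicate number beside each point, triangles for Theiler stage 21, circles for stage 22 or newborn, a bar at the group mean, a dashed line at the filter level of 7.39 and a dotted line at the floor of 5.65; vertical scales differ between panels. Erbb3 in the bladder lies below all other arrays, and urogenital sinus replicate 1 lies far below the other 3 sinus arrays for Foxd3 and Fabp7.

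**Figure D2:**
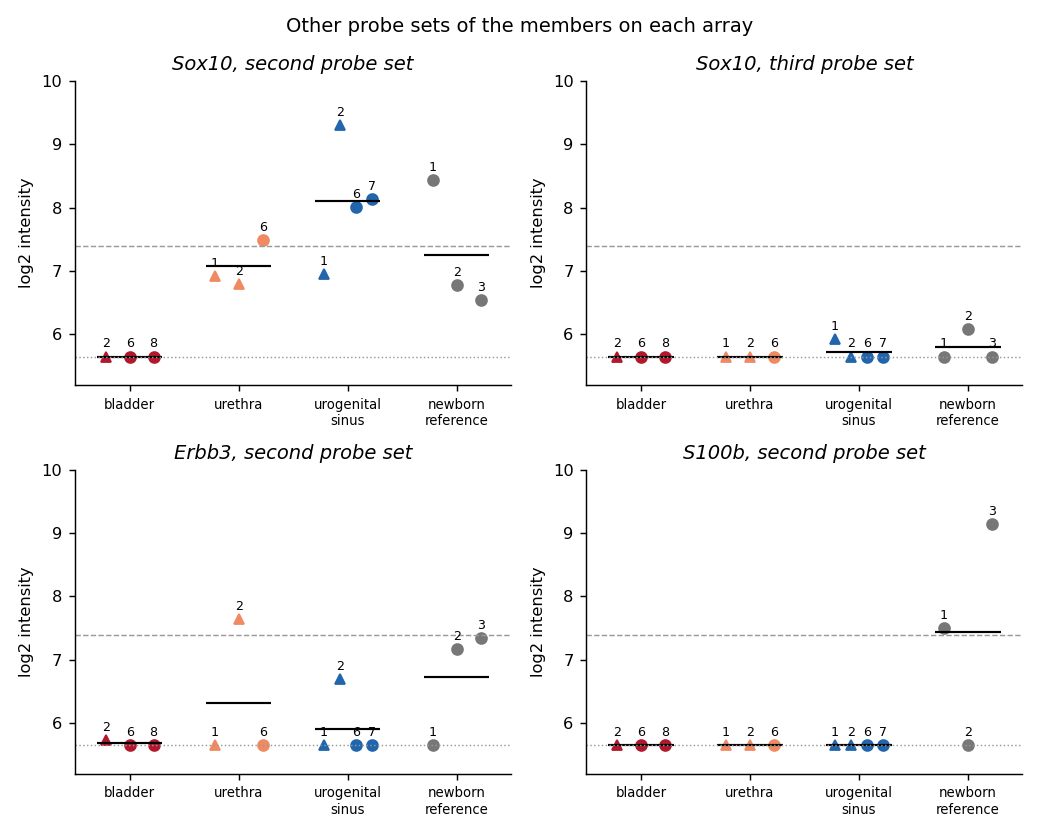
Log2 intensity (vertical axis) on each array, by group, of the probe sets that did not represent a gene: the second and the third of Sox10, the second of Erbb3 and the second of S100b. Symbols and lines are as in the plot of the 5 members by array. The second Sox10 probe set sits at the floor on all 3 bladder arrays and between 6.95 and 9.31 on the 4 urogenital sinus arrays.

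The first comparison asks what distinguishes the bladder from the urogenital sinus beneath it. All 5 genes had a lower mean in the bladder, with a median difference of -1.07 against -0.19 over all genes tested. In limma 0 of the 5 were called, and 1 had an unadjusted p under 0.05, as had 2588 of the 15019 genes. Over all genes, 2.54% were called, and 10.6% had bladder arrays that all lay below the sinus arrays, as Erbb3 did. Erbb3 averaged 11.45 ± 0.17 in the bladder (SD, n = 3) and 12.75 ± 0.37 in the sinus (SD, n = 4), a difference of -1.31 (SE 0.42, 95% interval -2.24 to -0.37, limma adjusted p = 0.146). For Sox10 the difference was -0.90 (SE 0.43, limma adjusted p = 0.311) and for Foxd3 it was -1.07 (SE 0.59, limma adjusted p = 0.377). S100b differed by -1.05 (SE 0.62, limma adjusted p = 0.408). Fabp7 averaged 8.46 ± 0.46 in the bladder (SD, n = 3) and 9.77 ± 2.32 in the sinus (SD, n = 4), a difference of -1.31 with an SE of 1.11 (limma adjusted p = 0.555), so its difference was well inside the spread between sinus arrays.

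The second Sox10 probe set gave a call where the representative one did not. With every kept probe set tested on its own, 27463 in all, it averaged 5.65 in the bladder and 8.10 ± 0.97 in the sinus (SD, n = 4), a difference of -2.45 (SE 0.48, limma adjusted p = 0.0449), or at least 1.64-fold lower in the bladder when the bladder is set at the filter level, which stands in for a detection limit. When the 2 kept sets stood in turn for Sox10 among the 15019 genes, the adjusted p was 0.311 for the representative and 0.0314 for the second. The mean of the Sox10 probe sets gave -1.68 and a limma adjusted p of 0.0140. The second probe set exceeded the filter level on 5 arrays, urogenital sinus replicates 2, 6 and 7, urethra replicate 6 and reference replicate 1. It thus passed the filter mostly through the group where it is high. Its bladder values were all raised to the floor, so their spread of 0 comes from the floor. Its call, and that of the mean that includes it, are descriptions.

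Urogenital sinus replicate 1 stood far below the other sinus arrays for Foxd3 and Fabp7. Without it, the difference between bladder and sinus was -2.46 for Fabp7 (limma adjusted p = 0.0581) and -1.61 for Foxd3 (limma adjusted p = 0.0705). Without both arrays numbered 1, the sinus and the urethra one, a choice made after the values were seen, 3 of the 5 members fell in the bladder at an adjusted p under 0.05 in limma: Fabp7 by 2.46 (adjusted p = 0.0104), Erbb3 by 1.43 (adjusted p = 0.0235) and Foxd3 by 1.61 (adjusted p = 0.0390). Over all 15019 genes, 766 were called under that choice, against 382 with all arrays. Foxd3 lay under the filter level on every bladder array, so the size of its difference depends on the floor. It was above that level on 4 arrays only, urogenital sinus replicates 2, 6 and 7 and reference replicate 1. Foxd3 thus passed the filter mostly through the group where it is high, and its call is a description. Leaving out urethra replicate 1 alone brought Erbb3 to a limma adjusted p of 0.0419, at a difference of -1.31, with 413 of all genes called. The deposited arrays share a trimmed mean but not a median, and centring each array on its median moved the median of all genes between bladder and sinus to 0.38. The centred differences of the 5 members ran from -0.72 for Fabp7 to -0.31 for Sox10, with limma adjusted p-values between 0.515 and 0.763. Relative to the median of all genes, the 5 differences ran from -1.12 to -0.72 as deposited and from -1.10 to -0.69 after centring. Centring shifts all genes of an array alike, so these ranges had to lie close, apart from the floor, and their likeness shows no robustness. After quantile normalization the differences relative to that median ran from -1.32 for Erbb3 to -0.37 for Sox10. S100b was at -0.45, Foxd3 at -0.72 and Fabp7 at -0.81, so that Sox10 and S100b moved most.

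The bladder and sinus arrays carry sample titles in more than 1 style, which may or may not mark separate processing. Every urethra array has a style that no bladder or sinus array has, so style and urethra cannot be told apart between regions. A fit with title style as a block links the urethra to them only through a reference array put in that style by its title. Within the style that holds bladder replicates 2 and 6 and sinus replicates 1, 2 and 6, the differences between bladder and sinus were -1.35 for Erbb3, -1.30 for Fabp7, -1.25 for Foxd3, -0.93 for S100b and -0.90 for Sox10. In the style that holds bladder replicate 8 and sinus replicate 7, they were -1.13 for Erbb3, -1.55 for Fabp7, -0.85 for Foxd3, -1.13 for S100b and -0.91 for Sox10. In both styles the second Sox10 probe set read 5.65, the floor, in the bladder and averaged 8.09 and 8.14 on their sinus arrays, so no exact difference can be given for it.

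Other crest and glial genes were read beside the members. Of 9 tested crest transcription factors, 3 fell in the bladder against the sinus, 0 rose and 6 did not pass, and the list was split in direction, with 5 differences below 0 and 4 above. Tfap2a, a crest and surface ectoderm factor, averaged 8.62 ± 0.17 in the bladder (SD, n = 3) and 11.40 ± 0.73 in the sinus (SD, n = 4), a difference of -2.78 (SE 0.39, limma adjusted p = 0.0102). Its relative Tfap2b was at least 3.27-fold lower in the bladder (limma adjusted p = 0.0119), and Msx1, a homeobox gene of crest and mesenchyme, differed by -1.55 (limma adjusted p = 0.0412). Among the uncalled factors, Snai2, of crest and mesenchyme, differed by 1.01 (limma adjusted p = 0.0845), Ets1 by 1.07 (limma adjusted p = 0.285) and Zeb2 by 0.88 (limma adjusted p = 0.173). The median of the list was -1.05.

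Of 17 tested Schwann precursor and glial genes, 3 fell, 1 rose and 13 did not pass, with a median of -1.06. Of the 17 differences, 11 lay below 0 and 6 above. The 3 that fell were Sox2, a progenitor factor shared by glial precursors and some epithelia, at -4.24 (SE 0.50, limma adjusted p = 0.00450), and the adhesion molecules Nrcam at -2.87 (limma adjusted p = 0.00387) and L1cam at -2.78 (limma adjusted p = 0.0407). Mal, a membrane protein of myelin and of epithelia, rose by 2.31 in the bladder (limma adjusted p = 0.0230).

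The neuregulin and ErbB list holds neuregulins, receptors of the ErbB family and genes of ErbB signalling, not all of them ligands or partners of Erbb3. It had 0 of 9 called and a median of -0.29. Nrg3, a neuregulin ligand, had the smallest p, with 5.65 on all bladder arrays against a mean of 6.98 in the sinus (difference -1.33, SE 0.34, limma adjusted p = 0.0737). The Nrg3 value is not an exact difference, because its bladder arrays were at the floor and its sinus mean lay under the filter level. Nrg1, the ligand of axons that acts on Schwann cells through ErbB3, differed by 0.45 (SE 0.75, limma adjusted p = 0.770). Erbb2, the partner receptor, differed by -0.95 (SE 0.62, limma adjusted p = 0.449).

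The list of autonomic neuron genes, whose cells lie beside crest-derived glia in ganglia, had all 14 tested genes below 0 in the bladder against the sinus, 2 of them called, and a median of -2.80. Elavl3, an RNA-binding protein of neurons, fell by 3.70 (SE 0.65, limma adjusted p = 0.0211), and Slc5a7, the choline transporter of cholinergic neurons, was at least 7.55-fold lower in the bladder (limma adjusted p = 0.0407). The mean log2 level of the list ran from 7.37 to 8.56 in the bladder and from 7.55 to 11.88 in the urogenital sinus, where replicate 1 was the lowest. Slc18a3, the vesicular acetylcholine transporter, was at the floor on every bladder array. Their part in the members' differences was not tested.

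Of the other lists, epithelium had 1 of 8 genes called lower in the bladder and 8 of 8 below 0, at a median of -0.67. Krt5, the basal epithelial keratin, was the called one, at -3.39 (SE 0.46, limma adjusted p = 0.00908). Of 6 smooth muscle genes, 5 rose in the bladder, and the median of the list was 3.40. The other, Des, the muscle intermediate filament desmin, differed by -2.30 (SE 0.58, limma adjusted p = 0.0740). Melanocyte, central glial and cartilage lists had 0 called of 7, 7 and 8. These lists were chosen with earlier results of these arrays known, so their counts are descriptions of the same samples.

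**Figure D3:**
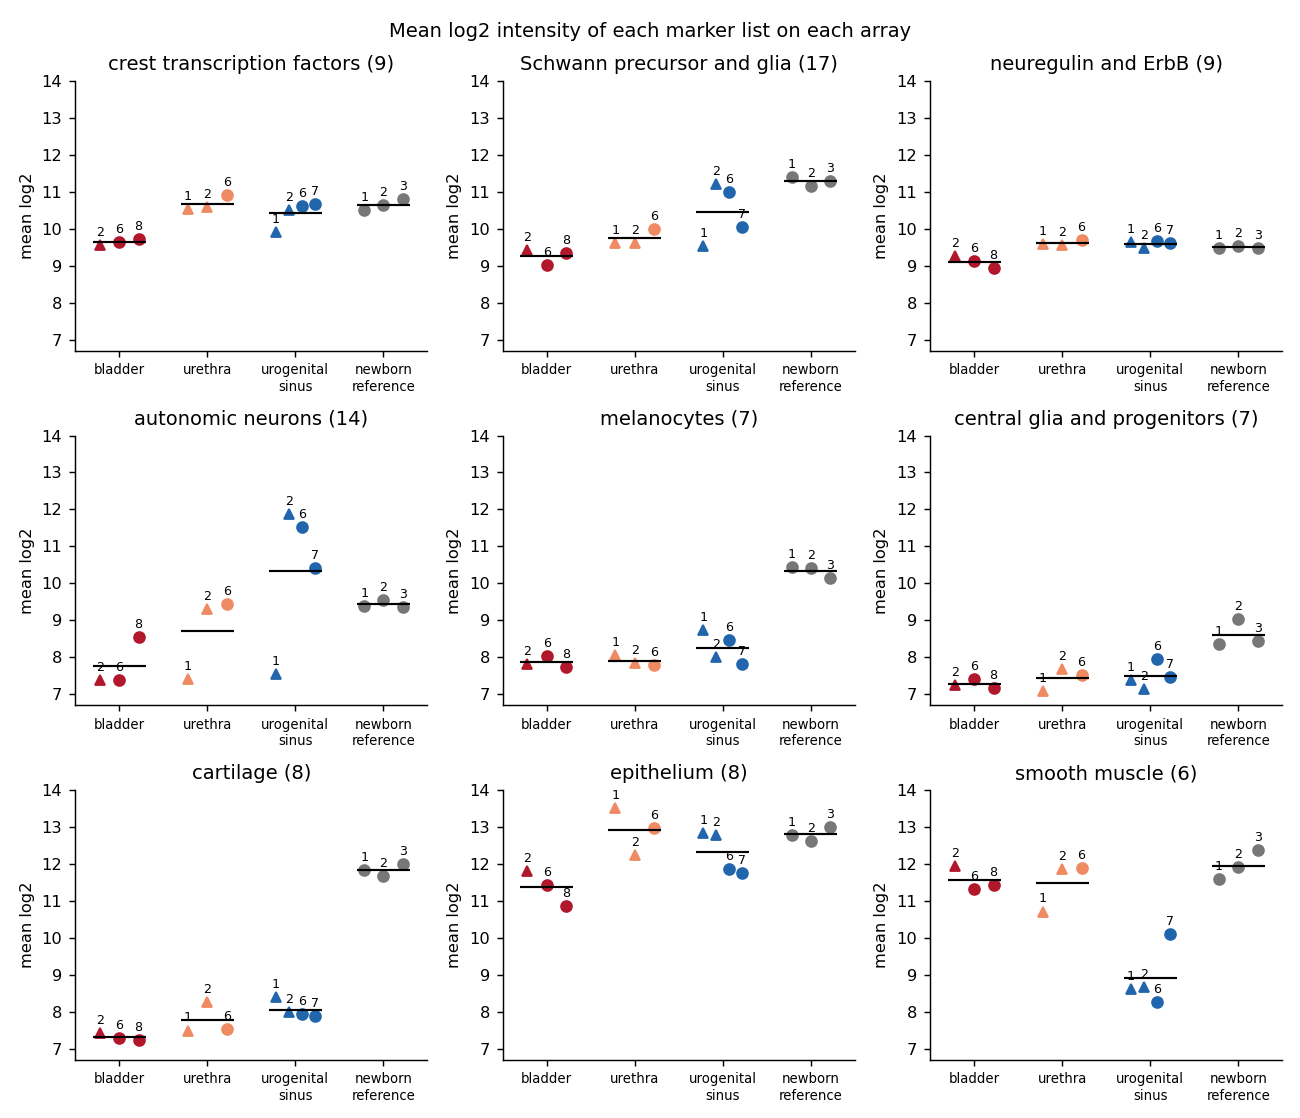
Mean log2 intensity (vertical axis) over the tested genes of each marker list on each array, by group, with the number of genes in parentheses, bars at group means and replicate numbers beside points, triangles for Theiler stage 21 and circles for stage 22 or newborn. Neuron genes on urogenital sinus replicate 1 averaged 7.55, against 10.42 to 11.88 on the other 3 sinus arrays, and smooth muscle genes were lowest in the sinus.

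The next comparison set the urethra against the urogenital sinus, its neighbour without fluorescence. No member was called, and every interval included 0. The differences were 0.13 for Sox10 (95% interval -0.82 to 1.08), 0.23 for Erbb3 (-0.71 to 1.17), -0.37 for S100b (-1.75 to 1.02), -0.85 for Foxd3 (-2.17 to 0.47) and -0.70 for Fabp7 (-3.18 to 1.78). Their limma adjusted p-values lay between 0.658 and 0.946, 0 of the 5 were called, 0 had an unadjusted p under 0.05, and all overlapped between the groups. Over all genes 0.0133% were called, 2 genes, while 3.32% lay lower and 4.90% higher in the urethra without overlap. The intervals leave room for differences of several-fold in Fabp7, S100b and Foxd3.

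In the bladder against the urethra, the other fluorescent tissue, all 5 means were lower, with a median of -0.68 against -0.25 over all genes. In limma 0 of the 5 were called, where 4.33% of all genes were. Of the 5, 2 had an unadjusted p under 0.05, as had 3655 of the 15019 genes. The arrays of the 2 groups did not overlap for Erbb3 and Sox10, as was the case for 22.6% of all genes in that direction. Erbb3 differed by -1.54 (SE 0.45, 95% interval -2.54 to -0.53, limma adjusted p = 0.0845) and Sox10 by -1.03 (SE 0.46, limma adjusted p = 0.201). The second Sox10 probe set differed by -1.42 (limma adjusted p = 0.172 with each probe set tested on its own). This is not an exact difference, because its bladder arrays were at the floor and its urethra mean of 7.07 lay under the filter level. S100b, Foxd3 and Fabp7 differed by -0.68, -0.22 and -0.61, with limma adjusted p-values between 0.539 and 0.856. Foxd3 turned to 0.26 after centring and to 0.32 after quantile normalization.

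Of 9 crest factors, 3 fell in the bladder: Tfap2a by 4.34 (SE 0.42, limma adjusted p = 0.00174), Twist1, a mesenchymal and crest factor, by 2.77 (limma adjusted p = 0.00704), and Tfap2b, at least 2.00-fold lower (limma adjusted p = 0.0291). Of 17 glial genes, 3 fell and 3 rose. Sox2 was 32.0-fold lower (limma adjusted p = 0.00230) and Gfra3, a receptor of crest-derived neurons and Schwann precursors, by 2.75 (limma adjusted p = 0.0481), while Mal rose by 3.91 (limma adjusted p = 0.00323), with Ncam1 and Pmp22 also higher by 1.78 and 1.44. Of 14 neuron genes 0 were called, of 8 epithelial genes 1 was called lower (Krt5, at -5.06), and of 9 neuregulin genes 0 were called.

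Against the newborn reference, whose arrays repeat 1 kind of pooled RNA and entered the fit as 1 mean sample, S100b and Fabp7 were the members that stood low. S100b averaged 6.52 ± 0.61 in the bladder (SD, n = 3), against 9.74 ± 0.32 in the reference arrays (SD, n = 3). S100b fell by 3.23 in the bladder (SE 0.94, limma adjusted p = 0.0415), at least 5.11-fold lower with the bladder set at the filter level. It was the 1 member of 5 called, where 17.0% of all genes were. For the urethra the difference was -2.55 (SE 0.94, limma adjusted p = 0.113) and for the urogenital sinus -2.18 (SE 0.91, limma adjusted p = 0.159). The groups did not overlap for S100b in any of the 3.

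Fabp7 averaged 8.46 ± 0.46 in the bladder (SD, n = 3) and 12.44 ± 0.36 in the reference (SD, n = 3), a difference of -3.98 with an SE of 1.68 (limma adjusted p = 0.138). Its differences were -3.37 (SE 1.68, limma adjusted p = 0.242) in the urethra and -2.67 (SE 1.62, limma adjusted p = 0.357) in the urogenital sinus. No region array reached a reference array. Without urogenital sinus replicate 1 the limma adjusted p was 0.0111 for the bladder and 0.0267 for the urethra, at the same differences. For the urogenital sinus itself the difference was then -1.52 (limma adjusted p = 0.265). Over all genes, 3411 were called for the bladder in that fit, against 2557 with all arrays.

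Erbb3 also did not overlap between bladder and reference (-1.38, SE 0.64, limma adjusted p = 0.170), and Sox10 (-1.24, limma adjusted p = 0.219) and Foxd3 (-0.40, limma adjusted p = 0.794) did. That made 3 of 5 members without overlap in the bladder, where 31.3% of all genes had no overlap in that direction, and 2 of 5 in the urethra and in the sinus, where 21.6% and 18.7% had none. In the urethra and the sinus 0 of 5 were called in limma, where 13.2% and 13.8% of all genes were called. In each of them 1 of 5 members had an unadjusted p under 0.05, as had 3906 and 3886 of the 15019 genes. Of the differences of Sox10, Erbb3 and Foxd3 in the urethra and the sinus, the largest was 0.68 for Foxd3 in the sinus (SE 0.86, limma adjusted p = 0.700). Since these 3 comparisons share the reference arrays, they are not independent of each other.

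The call for S100b was narrow. The adjusted p was 0.0967 after quantile normalization, 0.0973 after centring and 0.0608 without the filter, and it rose above 0.05 on leaving out any 1 of bladder replicates 2, 6 or 8, urogenital sinus replicates 6 or 7 or urethra replicate 6, where it reached up to 0.0980.

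Lists of other cell types that make S100b or Fabp7 were read on the same arrays. Cartilage genes averaged 7.24 to 7.43 on bladder arrays and 11.67 to 11.99 on reference arrays, with 7 of 8 called lower in the bladder, among them Col2a1, the main cartilage collagen, at least 35.9-fold lower. Central glial and progenitor genes averaged 7.15 to 7.40 on bladder arrays and 8.36 to 9.03 on reference arrays, with 1 of 7 called lower, Olig1, and 1 higher, Gfap. Melanocyte genes had 5 of 7 called lower in the bladder and 1 higher, Kit. Olig1 and some other genes of these lists exceeded the filter level on reference arrays only. Such genes passed the filter through the group where they are high, so their calls are descriptions. The part of these cell types in the levels of S100b and Fabp7 was not tested.

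Of the crest and glial lists against the reference, 4 of 9 crest factors fell in the bladder and 1 rose. Tfap2b fell at least 6.30-fold and Pax3, a factor of the early crest, at least 3.28-fold (limma adjusted p = 0.00305 and 0.00125), and Snai2, a crest and mesenchymal factor, rose by 2.13 (limma adjusted p = 0.00555). Pax3 exceeded the filter level on reference arrays only. It passed the filter through the group where it is high, so its call is a description. Of 17 glial genes, 4 fell and 1 rose. Pou3f1, a Schwann cell factor also made in brain and skin, was at least 27.5-fold lower in the bladder (limma adjusted p = 0.0105), and Ttyh1, a membrane protein of glia, at least 12.1-fold lower (limma adjusted p = 0.0300). In the urethra 3 of 17 glial genes fell, with Egr2, the myelination factor, at -4.17 (limma adjusted p = 0.0224), and in the sinus 0 of 17 were called.

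**Figure D4:**
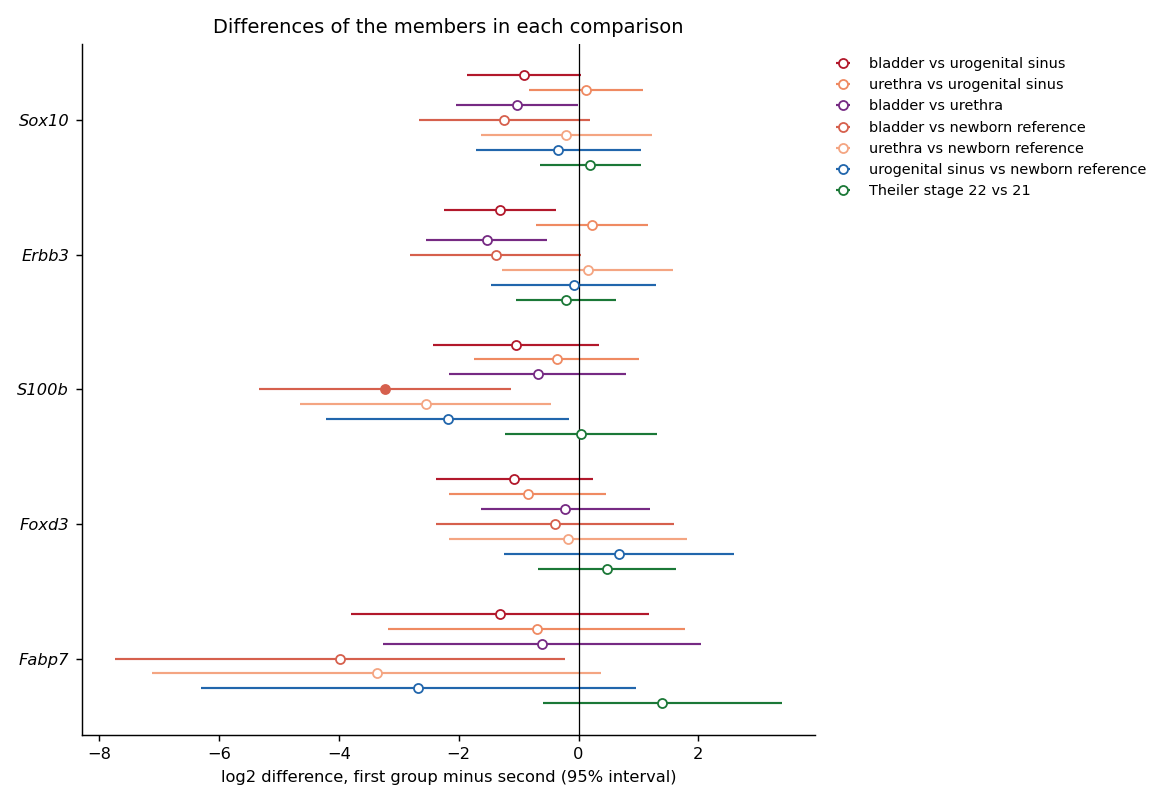
Log2 difference with 95% interval (horizontal axis) of each member in each of the 7 comparisons, first group minus second; the filled point is the 1 call at a limma adjusted p under 0.05 and open points are uncalled. The bladder differences lie left of 0 for all 5 genes in each comparison with the urogenital sinus, the urethra and the reference, and the filled point is S100b in the bladder against the reference, at -3.23.

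Theiler stage 22 was set against stage 21 within regions, over 5 arrays of each stage. No member was called and 0% of all genes were, although 3830 genes had an unadjusted p under 0.05. The largest difference among the members was 1.40 for Fabp7 (SE 0.88, 95% interval -0.60 to 3.40, limma adjusted p = 0.348). It was 0.48 without urogenital sinus replicate 1 (limma adjusted p = 0.638) and 0.13 without both arrays numbered 1 (limma adjusted p = 0.845). In the urogenital sinus Fabp7 averaged 10.84 over replicates 6 and 7 at stage 22 and 8.69 over replicates 1 and 2 at stage 21, of which replicate 1 was the low one. Foxd3 differed by 0.48, Sox10 by 0.19, Erbb3 by -0.21 and S100b by 0.04, with limma adjusted p-values between 0.594 and 0.979. The difference of the stage effect between regions was also tested, and the adjusted p was 1 for all 5 members and all 3 pairs of regions.

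Among themselves, the 5 genes formed no single pattern over the 10 region arrays. Foxd3 and Fabp7 correlated with r = 0.92 (rho 0.94), S100b and Fabp7 with r = 0.75 and S100b and Foxd3 with r = 0.69, while Sox10 and Fabp7 had r = -0.10 and Erbb3 and Fabp7 r = 0.16. These values are descriptions over 10 arrays that fall into 3 regions and share array-wide differences in signal, and they carry no test. Foxd3 and Fabp7 followed the mean of the 14 neuron genes with r = 0.95 and 0.92. The second Sox10 probe set followed it with r = 0.85 and the mean of the 17 glial genes with r = 0.90, whereas the representative Sox10 probe set had r = 0.04 and 0.02. Erbb3 followed the mean of the 8 epithelial genes with r = 0.82 (rho 0.75), that of the 17 glial genes with r = 0.56 (rho 0.78) and that of the neuron genes with r = 0.34 (rho 0.58). With the second Sox10 probe set it had r = 0.68 (rho 0.77). Epithelial genes averaged 10.87 to 11.82 on bladder arrays, 12.24 to 13.51 on urethra arrays and 11.75 to 12.85 on sinus arrays, in which urethra replicate 1 was highest for both the epithelial mean and Erbb3.

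**Figure D5:**
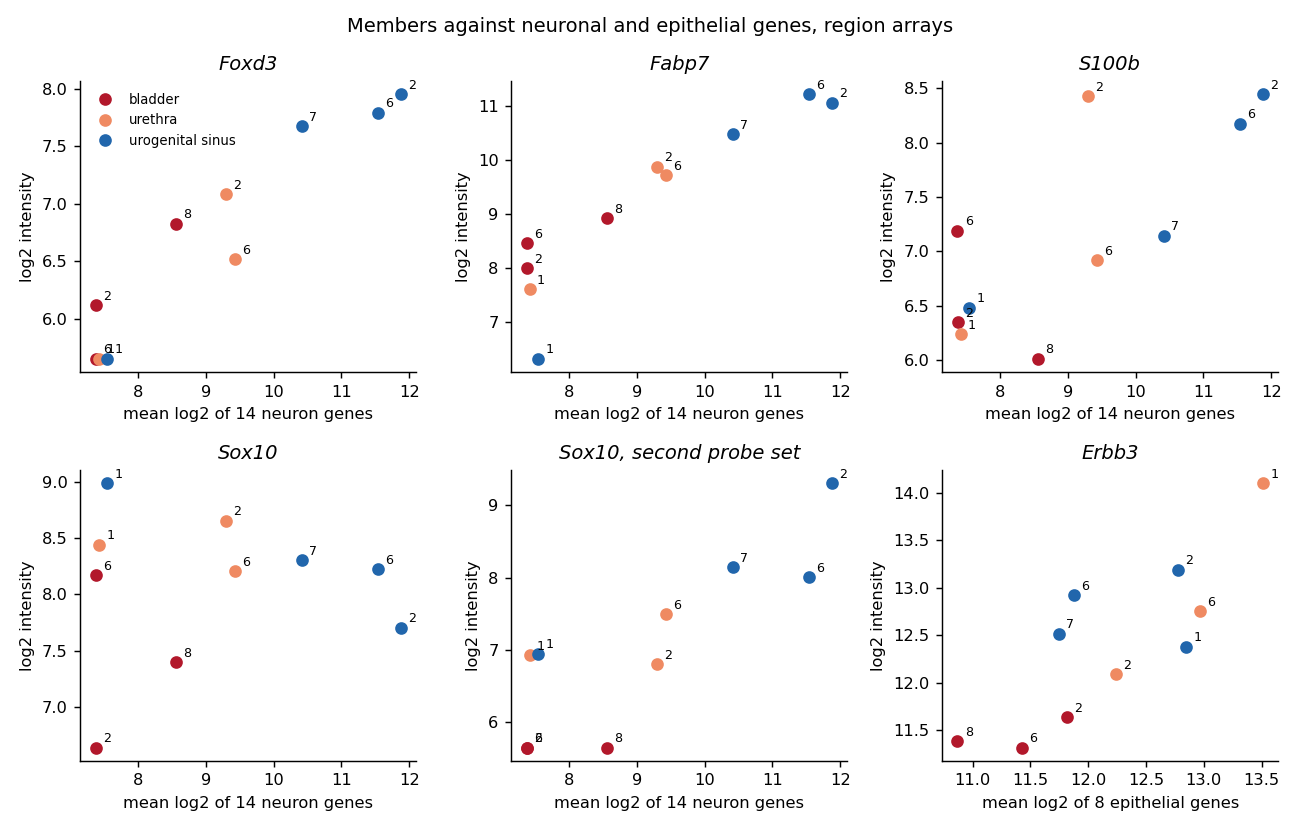
Log2 intensity (vertical axis) of a member on each of the 10 region arrays against the mean log2 intensity of the 14 neuron genes, or for Erbb3 of the 8 epithelial genes (horizontal axis), coloured by region with replicate numbers. Foxd3 and Fabp7 climb with the neuron genes (r = 0.95 and 0.92), the representative Sox10 probe set does not (r = 0.04), and Erbb3 climbs with the epithelial genes (r = 0.82).

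Genes with the pattern most like each member were taken as those with the highest Pearson r over the 10 region arrays. For Foxd3 they were Gjd2, a gap junction protein of neurons (r = 0.98), Slc18a2, the vesicular monoamine transporter (r = 0.97), Stmn2, a neuronal microtubule regulator (r = 0.96), and Nell1 (r = 0.96). For Fabp7 they were Gng2 (r = 0.99), Map2, a microtubule protein of neurons (r = 0.98), Rab3c, a synaptic vesicle protein (r = 0.98), and again Stmn2 (r = 0.96). Stmn2 was at the floor of 5.65 on both arrays numbered 1 and reached 13.70, 14.07 and 12.98 on urogenital sinus replicates 2, 6 and 7.

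For Erbb3 the nearest genes were Cldn6, a tight junction protein of embryonic epithelia (r = 0.96), Evx1os (r = 0.96), Ppfia3 (r = 0.96) and Kcnh1 (r = 0.95). For S100b they were Myl1, a myosin light chain of skeletal muscle (r = 0.96), Habp4 (r = 0.92), Plxna4, a semaphorin receptor (r = 0.92), and Olfm3 (r = 0.91). For the representative Sox10 probe set they were Cbs (r = 0.93), Parvg (r = 0.93), Pla2g2c (r = 0.92), Cd33 (r = 0.92), Pdk2 (r = 0.91), Rnase10 (r = 0.91), Grin2d (r = 0.91) and Fam243 (r = 0.91). Among 14954 genes compared over 10 arrays, high correlations arise readily, and likeness of pattern says nothing of shared function.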

How the data were processed

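The data are 1 table, deposited by the authors, that gives the intensity of 45101 probe sets on 13 arrays on a linear scale. RNA was amplified in 2 rounds and labelled with biotin, per the labels. The submitters' processing notes name GCOS, with no version. How the scans became this table is not given in the sources used here. Each array's mean intensity, with 2% trimmed from both ends, was 1500, so no further scaling was applied, and no detection calls were analysed here. Arrays have no read depth.

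Values were floored at the 20th percentile (50.23) and log2 transformed. Of the probe sets, 64 were controls, 34945 carried 1 symbol in the platform annotation, 932 several and 9160 none. Probe sets above the 40th percentile (167.76) on at least 3 arrays were kept, 27463 of them with 1 symbol, and the one with the highest mean stood for each of 15019 genes. Probe sets have no coordinates here because their build is not stated.

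Tests used limma 3.58.1 in R 4.3.3 (lmFit, eBayes with trend), two-sided, with Benjamini-Hochberg adjustment over all genes. The 10 region arrays shared 1 fit with 7 residual degrees of freedom, and the mean of the reference arrays entered as 1 sample. Stage was tested with region as a covariate. The fits were tested on simulated data. Where every array of the lower group was under the filter level and the other mean above it, a fold can be given against that level as "at least". Log2 differences of genes with a group under that level depend on the floor.

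The members and the gene lists were chosen with earlier results of these data known. Named are the members, up to 4 called genes of each list with the smallest p (1 or 2 of lists without calls), Actg2, and the 8 (Sox10) or 4 (others) genes most correlated with a member over the region arrays. Genes named outside this rule, Hbb-bh1, Erbb2, Nrg1, Ets1, Zeb2, Des and Snai2 against the sinus among them, were chosen after their values were seen. Alternatives covered normalization, floor, filter, probe set choice, limma settings, the arrays in the fit, stage, blocks for title number and title style, and each array left out.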

Additional observations from a re-analysis of the deposited data

Results flagged for a closer look

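On 2 genes, 1 urogenital sinus array lay far from the other 3. Foxd3 was 5.65, the floor, on replicate 1, against 7.68 to 7.95 on replicates 2, 6 and 7. Fabp7 was 6.32 on the same array, against 10.47 to 11.22 on the others. By the criterion used, about 1 in 20 groups of this size would be picked out by chance. The same array had the lowest neuron list mean of the sinus (7.55, against 10.42 to 11.88) and the highest Hbb-bh1 level of the series, and their part in the 2 values was not tested. Its Sox10 level on the representative probe set, 8.99, was the highest of the region arrays.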

How the results depend on the processing

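Of 898 values of the members under 31 alternatives, 807 kept their direction and their side of the threshold, 33 passed it, 9 lost it and 49 changed sign; none of those that changed sign was called. Without the arrays numbered 1, or with each Sox10 probe set in turn, are alternatives chosen after seeing the data. The cause of each change was not tested. With 3 or 4 arrays a region, the SE of a member's difference between regions was 0.42 to 1.19.

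Bladder against urogenital sinus, where 0 members were called, gave 1 with the mean of a gene's probe sets, 3 with array weights, 3 without both arrays numbered 1, 1 with the second Sox10 probe set, and 0 to 1 with 1 array left out. Bladder against urethra gave 1 with the mean of probe sets and 1 with array weights. Bladder against reference, where 1 was called, gave 0 after quantile normalization, 0 after median centring and 0 without the filter. It gave 2 with the mean of probe sets, 3 with array weights, 3 with the arrays of the 2 groups only, 3 with the reference arrays as separate samples, 3 without both arrays numbered 1, and 0 to 2 with 1 array left out. Urethra against reference gave 1 with the floor at the 40th percentile, 2 with array weights, 2 with separate reference arrays, 1 without both arrays numbered 1, and 0 to 1 with 1 array left out. Urogenital sinus against reference gave 1 with that floor and 2 with separate reference arrays. Over all genes, 382 were called between bladder and sinus, 46 to 2668 across alternatives, and 651 between bladder and urethra, 55 to 1873. Between bladder and reference it was 2557, with 5791 under array weights, 5390 with separate reference arrays and 3642 without both arrays numbered 1. There it was 2696 with the 2 groups only and 2374 with the mean of probe sets. It was 2303 after quantile normalization, 2102 after centring, 2847 without the filter, with more genes tested, and 1776 to 3411 with 1 array left out. Between urethra and reference it was 1987, with 3867 under array weights and 4196 with separate reference arrays. Array weights called 2668 between bladder and sinus and 1873 between bladder and urethra, and the mean of probe sets 400 and 584. Across alternatives, 595 to 4196 genes were called between urethra and reference. For the urogenital sinus against the reference it was 2076 of the 15019 genes, and 994 to 5270 across alternatives.

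Sign changes between urethra and sinus were these. Values with title style as a block rest on the reference array put in the urethra style, because no bladder or sinus array has that style. Sox10 was -0.45 with the mean of probe sets, -0.13 with title style as a block, -1.03 on its second probe set, and -0.072 to 0.36 with 1 array left out. Erbb3 was -0.061 with array weights, -0.46 without both arrays numbered 1, and -0.33 to 0.68 with 1 left out. S100b was 0.13 and Foxd3 0.46 with title style as a block, and with 1 left out S100b was -0.98 to 0.11 and Fabp7 -1.85 to 0.034. Between bladder and urethra, Foxd3 was 0.32 after quantile normalization, 0.26 after centring, and -0.60 to 0.11 with 1 left out, and Fabp7 was 0.11 with title style as a block.

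Against the reference, Foxd3 in the bladder was 0.12 after quantile normalization, 0.11 after centring, and -0.83 to 0.36 with 1 left out. In the urethra, Sox10 was 0.14 and 0.17 under those scalings and -0.50 to 0.025 with 1 left out. Erbb3 was -0.0041 with array weights, -0.41 without both arrays numbered 1, and -0.41 to 0.60 with 1 left out, and Foxd3 was 0.21 without both and -0.61 to 0.58 with 1 left out. In the sinus, Erbb3 was 0.18 after centring, 0.057 with array weights, 0.046 without both, and -0.40 to 0.23 with 1 left out, and Sox10 was 0.26 with the mean of probe sets and 0.85 on its second. Between stages, Erbb3 was 0.062 after centring and -0.43 to 0.034 with 1 left out. Sox10 was -0.021 with the floor at the 40th percentile and -0.19 to 0.45 with 1 left out, S100b was -0.21 with that floor, -0.61 without both, and -0.32 to 0.34 with 1 left out, and Foxd3 was -0.19 without both.

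The numbers in the titles were tested as a replicate block. Same-numbered arrays had correlations of deviations between -0.17 and 0.36. Of the 7 pairs 5 were above 0.1. Pairs with different numbers were not set beside them, so these values cannot decide whether the numbers pair the samples. The main fit did not pair them, and whether arrays share an embryo is not stated. With the replicate block, Erbb3 differed by -1.19 between bladder and sinus (limma adjusted p = 0.422), Fabp7 by -2.47 (limma adjusted p = 0.190), and 132 of all genes were called; no member's call changed.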
